A study of Mus musculus with 6 samples.

Results

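The 10 genes Ddx58, Ifih1, Dhx58, Zbp1, Mavs, Tmem173, Tbk1, Irf3, Irf7 and Trex1 encode proteins that sense nucleic acid inside the cell, pass the signal on, or remove the nucleic acid. They were taken by name from 34797 gene names on a mouse expression array, and 13 probes on the array carried one of these names. Each probe had 1 spot per array. Ddx58, Ifih1 and Zbp1 had 2 probes each, and the other 7 genes had 1 probe each.

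RNA and DNA are normally kept out of the cytosol or masked there, and cells carry receptors for nucleic acid that appears in it. The helicases RIG-I (Ddx58) and MDA5 (Ifih1) bind double-stranded or uncapped RNA and signal through the mitochondrial adaptor MAVS, while LGP2 (Dhx58) has no signalling domain of its own and modulates both. DNA in the cytosol is read by cGAS, whose cyclic dinucleotide activates STING (Tmem173); ZBP1 binds nucleic acid in the Z conformation. These routes meet at the kinase TBK1 and the transcription factors IRF3 and IRF7, which induce type I interferon, and interferon in turn raises the transcription of many of the receptors. TREX1 is an exonuclease that degrades DNA in the cytosol and keeps the DNA route quiet.

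The irradiated group had received 900 cGy of total body X-irradiation 24 h before the spleen was taken, and the unirradiated group (0 cGy) came from resting mice. Both groups were of strain B10.BALB-16.C2A, a congenic strain. Each group had 3 arrays, and each array held RNA of 3 pooled mice, extracted from homogenised whole splenocytes, so that p-values measure the spread between pools. In such bulk RNA, fewer cells of a type and less RNA per cell cannot be told apart.

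Levels are log2 intensities after subtraction of the array's own 75th percentile, so a level of 0 lies at that percentile; since probes differ in brightness, levels of different probes are not compared. Of 39683 probes tested with limma at an adjusted p under 0.05, 26.4% were higher and 31.1% lower at 900 cGy, and for 65.7% the arrays of the groups did not overlap. The median change over all probes was -0.07. Scaling by the labelled spike-in RNAs instead moved that median to -0.36 and the share of higher calls among all calls to 28.5%, against 46.0%. B cell, T cell and macrophage markers were well above background on all 6 arrays. Unirradiated replicate 3 stood apart in its markers of dividing cells, with a mean level of 1.61 where the other unirradiated arrays had 2.92 and 3.19.

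Probes are located by the positions that the array's files give on mm9. The probes of Irf7 and Tbk1 show the contrast in the pathway most directly, since Irf7 had the largest change of the 10 genes and Tbk1, the kinase acting on it, did not pass the threshold. The Irf7 probe lies on the minus strand and spans chr7:148450664-148451014, and the Tbk1 probe lies on the minus strand and spans chr10:120988364-120988587. Each span is longer than the 60 bases of the probe, which places both probes across an exon junction of the spliced transcript. Both are given 5′ to 3′.
Irf7: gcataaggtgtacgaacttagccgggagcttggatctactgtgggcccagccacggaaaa
Tbk1: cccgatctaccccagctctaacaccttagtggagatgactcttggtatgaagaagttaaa

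At 900 cGy, 7 of the 10 genes were higher, 1 was lower and 2 did not pass the threshold, where 26.4% of all probes were higher and 31.1% lower. The median change of the 10 was 1.32, against -0.07 over all probes. All 13 probes were well above background on all 6 arrays, and for all 13 the arrays of the groups did not overlap, as also held for 65.7% of all probes. The 7 genes that were higher held the 4 receptors, Irf7, Trex1 and Mavs; 6 of them were raised by at least 2-fold, and Mavs was not.

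**Figure D1:**
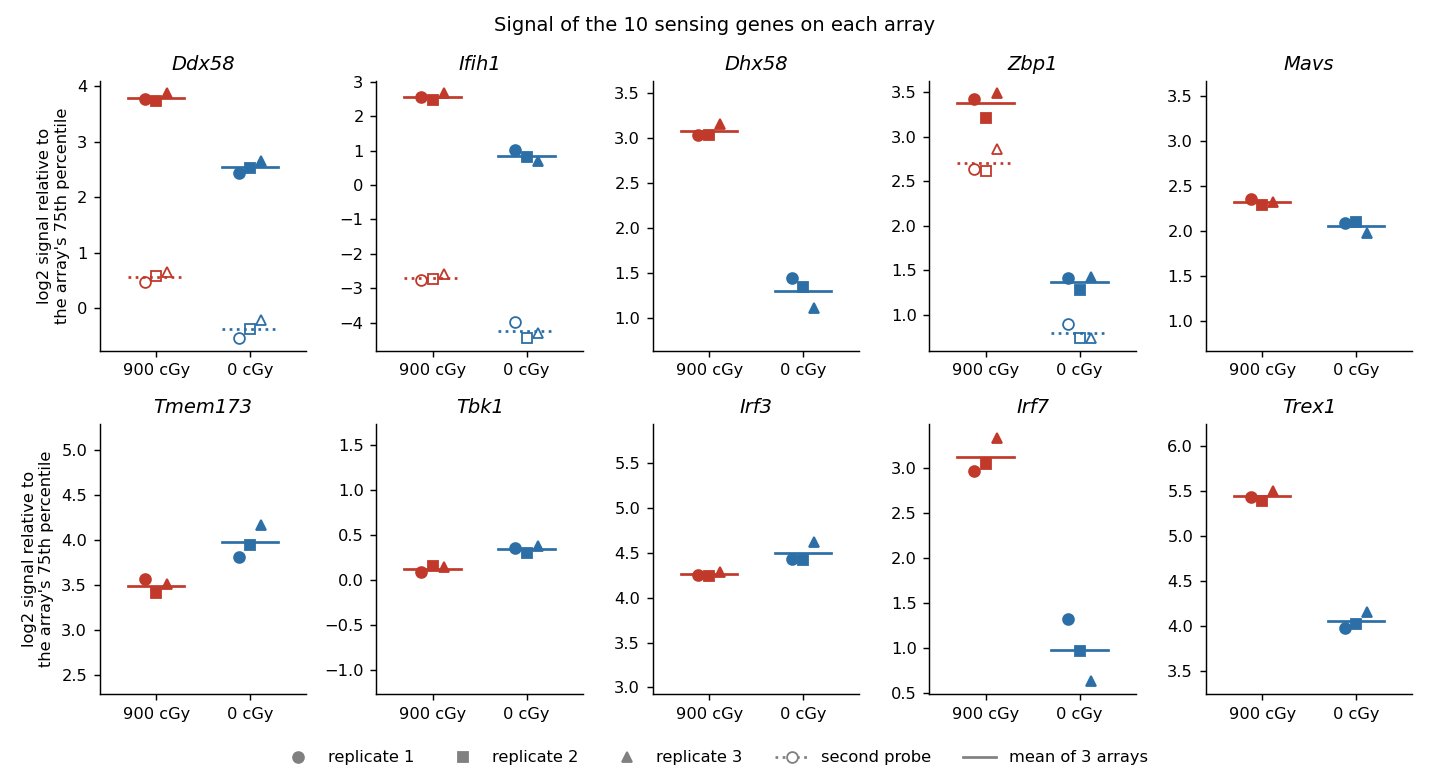
Log2 signal of the 10 genes above each array's 75th percentile, with 900 cGy in red on the left and 0 cGy in blue on the right of each panel. Symbols mark the 3 replicates, lines the group means, and open symbols the second probe of Ddx58, Ifih1 and Zbp1; panels have their own vertical ranges, and the groups do not overlap for any of the 13 probes.

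Among the RNA helicases, Dhx58 had levels of 3.03, 3.03 and 3.15 at 900 cGy, against 1.44, 1.34 and 1.11 at 0 cGy. The lowest irradiated pool lay far above the highest unirradiated one, and the change was 1.77 (SE 0.11, n = 3 each, limma adjusted p = 8.89e-05), or 3.42-fold. Ifih1, the sensor of long double-stranded RNA, had levels of 2.55, 2.49 and 2.67 at 900 cGy, against 1.01, 0.82 and 0.69 at 0 cGy. Here too the groups were well separated, with a change of 1.73 (SE 0.11, limma adjusted p = 9.25e-05), or 3.31-fold. A second, much dimmer Ifih1 probe changed by 1.55 (SE 0.14).

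Ddx58, the sensor of uncapped RNA ends, had the smallest change of the 3 helicases. Its brighter probe had levels of 3.76, 3.73 and 3.87 at 900 cGy, against 2.43, 2.52 and 2.65 at 0 cGy. The groups did not overlap, and the change was 1.25 (SE 0.10, limma adjusted p = 0.000137), or 2.38-fold. Its second probe, 0.76 kb away within the same transcript record, gave 0.94 (SE 0.11, limma adjusted p = 0.000682). The log2 ratio of the brighter to the dimmer Ddx58 probe was 3.22 ± 0.07 at 900 cGy and 2.91 ± 0.06 at 0 cGy (SD, n = 3 each), so the probes differed in size of change on every array, at p = 0.1 in a two-sided exact permutation test, the smallest value that 3 against 3 arrays allow (0.3 after adjustment over 3 such pairs of probes).

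Zbp1 encodes the receptor for Z-form nucleic acid, which can also start necroptosis through RIPK3. Its brighter probe had levels of 3.43, 3.21 and 3.49 at 900 cGy, against 1.41, 1.28 and 1.42 at 0 cGy. The groups were widely separated, and the change was 2.01 (SE 0.11, limma adjusted p = 6.97e-05), or 4.01-fold. The second Zbp1 probe, which the files assign to another RefSeq transcript and which lies elsewhere in the gene, changed by 1.92 (SE 0.11). The difference between the changes of the Zbp1 probes was 0.09, and on the ratio of the probes the groups overlapped.

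The adaptors differed from the receptors. Mavs, which relays the signal of Ddx58 and Ifih1, had levels of 2.35, 2.28 and 2.32 at 900 cGy, against 2.09, 2.10 and 1.97 at 0 cGy. All irradiated pools lay above all unirradiated ones by a small margin, and the change was 0.27 (SE 0.08, 95% interval 0.07 to 0.47, limma adjusted p = 0.0321), or 1.20-fold. This call was lost in 10 of 19 other ways of processing the values. Spike-in scaling gave -0.022 (limma adjusted p = 0.931), and without any 1 irradiated array, or without unirradiated replicate 2, the adjusted p lay between 0.0626 and 0.102. It was also lost with median scaling (limma adjusted p = 0.0717), without the filter on dim probes (0.064) and with the slide row as a block.

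Tmem173, which encodes STING, was the 1 gene of the 10 that was lower. It had levels of 3.56, 3.41 and 3.51 at 900 cGy, against 3.81, 3.94 and 4.17 at 0 cGy. Every irradiated pool lay below every unirradiated one, and the change was -0.48 (SE 0.12, 95% interval -0.76 to -0.20, limma adjusted p = 0.0123), or 1.39-fold lower. The call was lost without irradiated replicate 2 (adjusted p = 0.0503). It was also lost among the 4 arrays on the first row of the slide, where the change was -0.41 (adjusted p = 0.198) with a single irradiated array, and with the slide row as a block (adjusted p = 0.113). B cell markers moved in the same direction as Tmem173, 8 of 8 being lower, with mean levels of 0.80 to 0.98 at 900 cGy and 3.67 to 4.10 at 0 cGy. So did 7 of 8 T cell markers, 7 of 8 markers of red cell precursors and 7 of 7 tested markers of dividing cells. Cd4, the remaining T cell marker, was higher, as were all 12 macrophage markers and 7 of 8 stroma and endothelium markers. The part of any of these cell types in the change of Tmem173 was not tested.

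Neither the kinase nor its constitutive substrate passed the threshold. Tbk1 had levels of 0.09, 0.15 and 0.14 at 900 cGy, against 0.36, 0.30 and 0.38 at 0 cGy. The difference was -0.22 (SE 0.08, 95% interval -0.41 to -0.03, limma adjusted p = 0.0537). Irf3, the factor present before any stimulus, had levels of 4.25, 4.24 and 4.29 at 900 cGy, against 4.43, 4.42 and 4.62 at 0 cGy. The difference was -0.23 (SE 0.09, 95% interval -0.45 to -0.01, limma adjusted p = 0.0687), so both genes had lower values on all irradiated arrays, by less than the test could call. Of 19 other ways of processing the values, 6 called Tbk1 lower and 3 called Irf3 lower. With spike-in scaling both were called lower, Tbk1 at -0.50 (limma adjusted p = 0.0367) and Irf3 at -0.52 (limma adjusted p = 0.0348).

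Irf7, the interferon-induced factor that amplifies type I interferon, had the largest change of the 10 genes. Its levels were 2.97, 3.04 and 3.34 at 900 cGy, against 1.32, 0.96 and 0.63 at 0 cGy. The unirradiated pools spread over 0.69 log2 units, the widest range of any of the 13 probes in either group, yet the lowest irradiated pool lay above all of them. The change was 2.14 (SE 0.19, 95% interval 1.67 to 2.61, limma adjusted p = 0.000228), or 4.42-fold.

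Trex1, the DNA exonuclease, had levels of 5.43, 5.39 and 5.50 at 900 cGy, against 3.98, 4.02 and 4.15 at 0 cGy. The groups were well separated, and the change was 1.39 (SE 0.09, limma adjusted p = 9.15e-05), or 2.62-fold. On the DNA side of the pathway the exonuclease was higher while the adaptor STING was lower in the same pools.

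**Figure D2:**
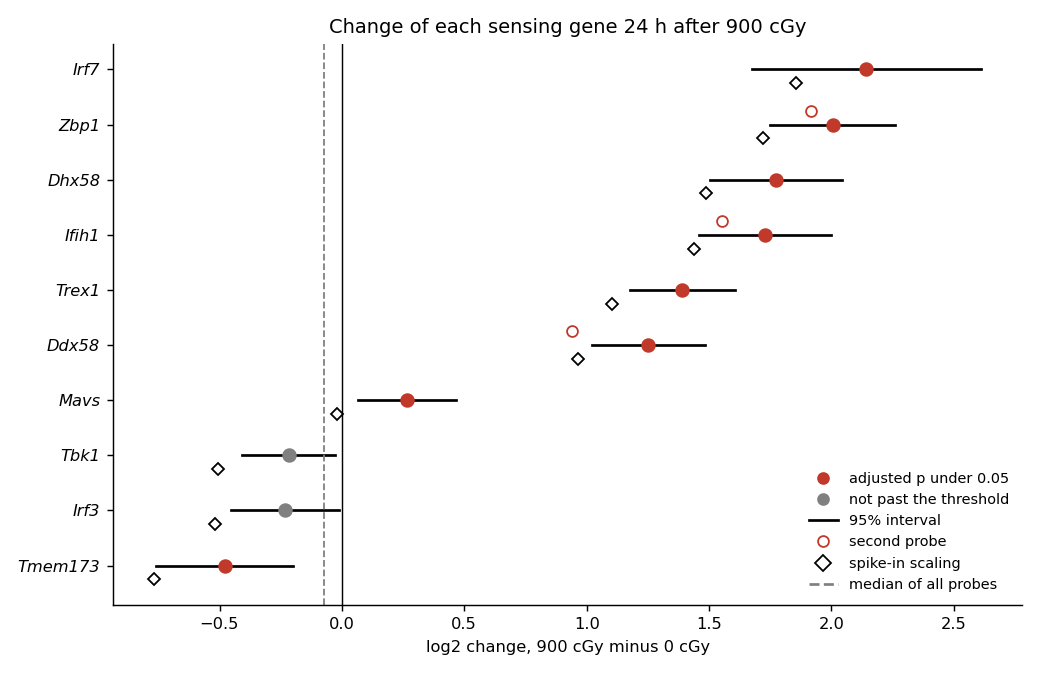
Log2 change of each gene (900 cGy minus 0 cGy) with its 95% interval, ordered by size, on the 75th-percentile scale; open circles are second probes, open diamonds the values with spike-in scaling, and the dashed line the median of all probes at -0.07. Irf7, Zbp1, Dhx58, Ifih1, Trex1 and Ddx58 lie between 1.25 and 2.14, and Mavs, Tbk1, Irf3 and Tmem173 lie between -0.48 and 0.27.

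Across 19 other ways of processing the values, Irf7, Zbp1, Dhx58, Ifih1, Trex1 and Ddx58 were called higher every time. Over those alternatives the change of Irf7 ranged between 1.86 and 2.32, and that of Ddx58, the smallest of the 6, between 0.94 and 1.31. Unirradiated replicate 3 had the lowest dividing-cell markers of the unirradiated arrays. Without it, the change was 1.97 for Irf7 and 2.03 for Zbp1, and all 10 genes kept their side of the threshold.

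Ratios of 2 genes on the same array do not depend on the scaling, and 10 such ratios were compared. For 9 of them the groups did not overlap, and each reached p = 0.1 in a two-sided exact permutation test (0.111 after adjustment over the 10 ratios), which is the smallest p that 3 against 3 arrays allow and cannot reach 0.05. The log2 ratio of Irf7 to Irf3 was -1.28, -1.20 and -0.95 at 900 cGy, against -3.11, -3.46 and -3.99 at 0 cGy. The balance between these factors thus moved by 2.38 towards Irf7, a 5.19-fold change of the ratio, in which no irradiated array came near an unirradiated one.

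The receptors moved apart from their adaptor. Relative to Mavs, Dhx58 changed by 1.51, Ifih1 by 1.46 and Ddx58 by 0.99. Relative to Ddx58, Dhx58 changed by 0.52 and Ifih1 by 0.48, so that both helicases moved further than Ddx58 on the scale of its brighter probe. The Ifih1 to Ddx58 ratio was -1.22 ± 0.02 at 900 cGy and -1.70 ± 0.26 at 0 cGy (SD, n = 3 each), and the irradiated arrays were much closer to each other than the unirradiated ones.

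On the DNA side, the log2 ratio of Trex1 to Tmem173 was 1.87, 1.98 and 1.997 at 900 cGy, against 0.17, 0.08 and -0.02 at 0 cGy, a change of 1.87 or 3.66-fold. The ratio of Tmem173 to Mavs fell by 0.74 on the log2 scale, with 1.17 ± 0.04 at 900 cGy and 1.92 ± 0.24 at 0 cGy. The exception among the 10 was Tbk1 to Irf3, for which the ratio was -4.13 ± 0.04 at 900 cGy and -4.15 ± 0.09 at 0 cGy (exact permutation p = 0.9). Its groups overlapped, and the difference was 0.015.

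**Figure D3:**
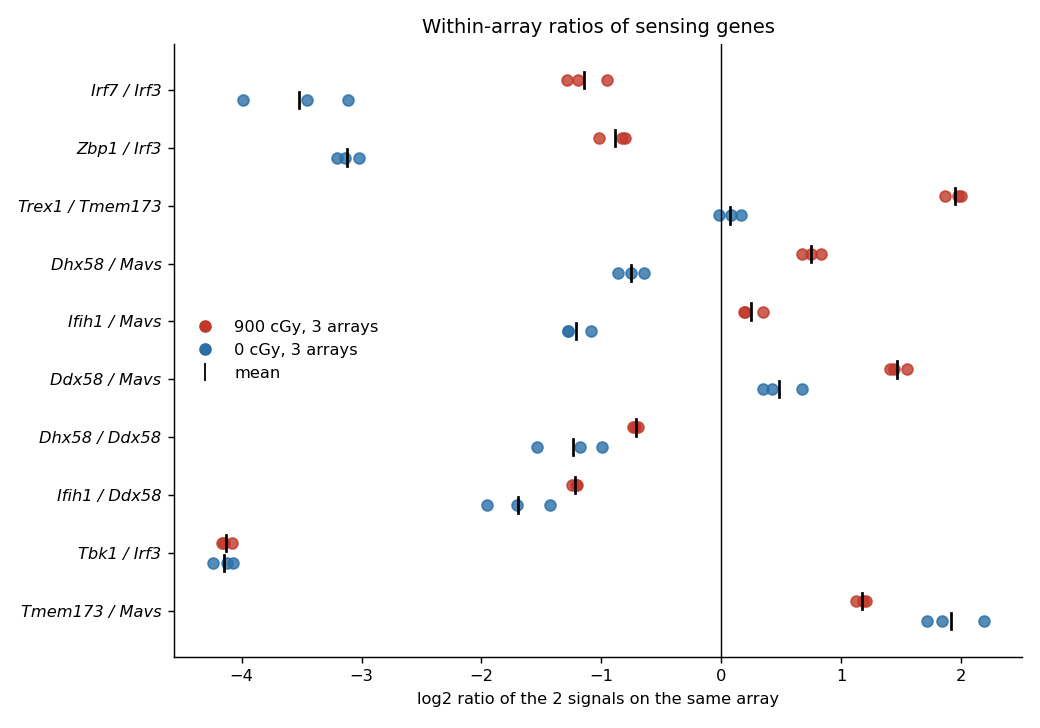
Log2 ratio of pairs of genes on the same array, with the 3 arrays at 900 cGy in red above the 3 arrays at 0 cGy in blue and the mean as a black tick. The groups are apart for 9 of 10 ratios and overlap for Tbk1 to Irf3; positions of different ratios along the axis depend on probe brightness.

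Promoter windows of RefSeq on GRCm38.p6, with 250 bases before and 50 after the transcription start, were found for 7 of the 10 genes, namely Ddx58, Ifih1, Mavs, Tbk1, Irf3, Irf7 and Trex1. They were searched on both strands for the core of the interferon-stimulated response element, GAAANNGAAA, which interferon-activated STAT and IRF complexes bind. It occurred in 2 of the 7 genes, both of them receptors that were higher at 900 cGy, against 3.99% of 27025 genes. In Ifih1 it lies 33 to 42 bases after the start, at chr2:62646214-62646223 on the minus strand. In Ddx58 it lies 3 to 12 bases after the start, at chr4:40239814-40239823, and reads in the opposite direction to the gene, which is on the minus strand. The 30 bases around each are given in the gene's direction, with the core in capitals.
Ifih1: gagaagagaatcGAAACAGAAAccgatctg
Ddx58: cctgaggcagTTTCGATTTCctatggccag
Windows of Irf7, Trex1, Mavs, Tbk1 and Irf3 did not hold these letters. The gamma-activated site TTCNNNGAA, searched in the same way, was in 0 of the 7 genes and in 9.55% of all genes. Of the 30 interferon-stimulated genes described next, 22 had a window, and 11 of these held the response element core. These matches describe the letters only.

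Interferon-stimulated genes, the usual readout of the pathway, were higher almost throughout. Of 30 listed, 26 were higher, 2 were lower and 2 were not called, where 26.4% of all probes were higher and 31.1% lower. The median change was 1.67 against -0.07 over all probes. Ifi44 had the largest change, with levels of 3.56, 3.45 and 3.64 at 900 cGy, against 0.19, -0.04 and 0.10 at 0 cGy, or 11.1-fold (limma adjusted p = 4.53e-05). Ifit3, which encodes an antiviral RNA-binding protein, changed by 3.31. The probe of Oas1g, of the oligoadenylate synthetases that activate RNase L, had no unirradiated array well above background, and its level at 900 cGy was at least 4.79-fold higher (limma adjusted p = 6.97e-05).

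The exceptions were Isg20, an exonuclease, at -1.58 (limma adjusted p = 0.00229), and Rsad2, which encodes viperin, at -1.06 (limma adjusted p = 0.0425). Rsad2 had levels of 3.59, 3.54 and 3.81 at 900 cGy, against 5.26, 5.04 and 3.84 at 0 cGy. Unirradiated replicate 3 lay next to the irradiated arrays in Rsad2, and 1 in place of 2 listed genes was called lower when any 1 array other than unirradiated replicate 3 was left out.

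Most interferon ligands were not called, where 26.4% of all probes were higher and 31.1% lower. Of 15 interferon ligands with a probe, 10 were well above background on all 6 arrays, and 2, Ifna4 and Ifne, on none. Ifnb1, the classical product of IRF3 and IRF7, was well above background on 1 irradiated array and no unirradiated one, and it was not tested. Of the 12 ligands tested, only Ifng was higher, by 0.77 (limma adjusted p = 0.00057), and only Il28b, a type III interferon, was lower, at -0.85 (limma adjusted p = 0.0135). Interferon alpha genes resemble each other closely, so their probes may share signal.

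Of 11 genes of interferon receptors and their signalling, 5 were higher and 1 was lower, against 26.4% and 31.1% of all probes. Stat2, part of the factor that carries the type I interferon signal, changed by 1.36 (limma adjusted p = 0.000109). The receptor chains went in opposite directions, Ifnar2 by 0.94 and Ifnar1 by -0.55. The other Ifnar1 probes changed by as little as -0.015, and Ifnar1 was not called with the slide row as a block.

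Of 20 partners of the RNA receptors, 6 were higher and 8 lower, with a median of -0.12, where 26.4% and 31.1% of all probes were higher and lower. Spike-in scaling gave 3 higher and 9 lower. Ddx60, a helicase related to the receptors, had no unirradiated array well above background, and its level at 900 cGy was at least 2.43-fold higher (limma adjusted p = 0.000468). Eif2ak2, the RNA-activated kinase PKR, changed by 1.26, and Usp15, a deubiquitinase, by -1.33.

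Of 26 partners of the DNA route, 6 were higher and 15 lower, with a median of -0.44. The shares over all probes were 26.4% higher and 31.1% lower. By each gene's brightest probe, the largest changes upward were those of Mnda at 2.12 and Ifi204 at 2.06. Another Ifi204 probe changed by 3.16. Both genes are of the interferon-inducible p200 family, whose members resemble each other and may share signal. Hmgb2, a chromatin protein that binds DNA, changed by -1.88. The cGAS gene Mb21d1, chosen for mention because cGAS feeds Tmem173, changed by 0.39 (limma adjusted p = 0.0247), and by 0.10 with spike-in scaling.

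Of 15 genes for the clearance of nucleic acid, 5 were higher and 5 lower, near the shares of all probes (26.4% and 31.1%). Pld3, a lysosomal exonuclease, stood beside Trex1 with 1.88 (limma adjusted p = 6e-05), whereas Fen1, a flap endonuclease of replication, changed by -1.66 and Rnaseh2a, the catalytic subunit of RNase H2, by -0.92. With spike-in scaling 1 was called higher and 6 lower.

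Genes around TBK1 and the adaptors mostly did not pass the threshold, as was the case for Tbk1. Of 23 tested, 15 were not called, 4 were higher and 4 lower, against 26.4% higher and 31.1% lower among all probes. Spike-in scaling gave 2 higher and 8 lower. Tbkbp1, a scaffold of TBK1, changed by 1.13, Dtx4, a ubiquitin ligase, by 0.99, and Ikbkb, a kinase of the NF-kappaB route, by -0.79. Among 8 partners of ZBP1 in cell death, 3 were higher and 1 lower, beside the same shares of all probes. Spike-in scaling gave 1 higher and 2 lower. Mlkl, the executioner of necroptosis, had levels of 0.58, 0.73 and 0.77 at 900 cGy, against -0.97, -1.23 and -1.66 at 0 cGy, a 3.95-fold difference (limma adjusted p = 0.000232). Ripk3 changed by 0.47, and by 0.19 with spike-in scaling (adjusted p = 0.43), and Casp8 by -0.28.

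Other genes of the IRF family and its binding proteins were mixed, with 2 of 9 higher and 4 lower, against 26.4% and 31.1% of all probes. Irf1 was higher, with levels of 5.51, 5.47 and 5.50 at 900 cGy, against 4.57, 4.66 and 4.81 at 0 cGy, a change of 0.81 (limma adjusted p = 0.000569). Irf2bp2 changed by 0.41, a call that spike-in scaling removed (0.12, adjusted p = 0.611). Irf4, a factor of activated lymphocytes and plasma cells, changed by -1.07.

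**Figure D4:**
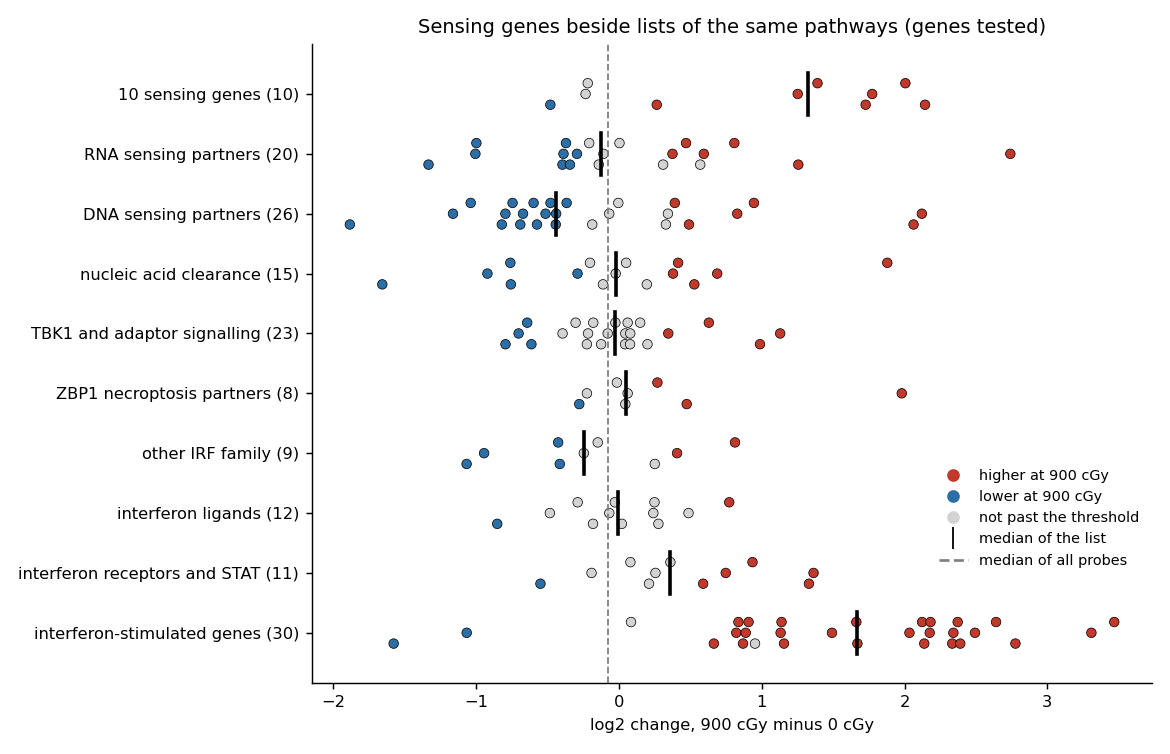
Log2 change (900 cGy minus 0 cGy) of the 10 genes and of each gene tested in 9 lists of the same pathways, red where higher, blue where lower and grey where the adjusted p was 0.05 or more; black ticks are list medians and the dashed line the median of all probes. Medians are 1.32 for the 10 genes, 1.67 for interferon-stimulated genes and between -0.44 and 0.36 for the other lists.

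Levels of cell type markers moved with the groups as well. Their counts, here and below, stand beside 26.4% higher and 31.1% lower among all probes. All 12 macrophage markers were higher at 900 cGy, and their summed signal, in multiples of the 75th percentile, was 848 to 895 at 900 cGy and 217 to 236 at 0 cGy. All 8 B cell markers were lower, with sums of 49.2 to 54.7 at 900 cGy and 284 to 366 at 0 cGy. Of 8 T cell markers 7 were lower, and the 8 had sums of 27.8 to 28.5 at 900 cGy and 66.0 to 94.5 at 0 cGy. The remaining T cell marker, Cd4, was higher by 0.31 (limma adjusted p = 0.0397), and by 0.02 with spike-in scaling. Each marker of these 3 cell types was well above background on all 6 arrays. Among 8 stroma and endothelium markers, 7 were higher, with a median change of 1.27 and sums of 179 to 191 at 900 cGy and 74.5 to 81.9 at 0 cGy. Of 8 markers of red cell precursors 7 were lower, with a median of -7.38, and all 7 markers of dividing cells that were tested were lower, with a median of -2.76.

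The mean change of the macrophage markers, 2.02, was similar in size to that of the genes that were higher most. Relative to the mean of the 12 macrophage markers on the same array, Irf7 differed by 0.12 and Zbp1 by -0.018 between the groups, with overlapping arrays. Dhx58 differed by -0.25 and Ifih1 by -0.30, again with overlap, while Trex1 (-0.63) and Ddx58 (-0.77) did not overlap and were lower at 900 cGy on that scale. Mavs, Tmem173, Tbk1 and Irf3 lay between -1.76 and -2.50 on that scale. Relative to the mean of the 30 interferon-stimulated genes instead, Irf7 differed by 0.60, Zbp1 by 0.46, Dhx58 by 0.23, Ifih1 by 0.18 and Ddx58 by -0.29, without overlap. Trex1 differed by -0.16, with overlap, and Mavs, Tmem173, Tbk1 and Irf3 lay between -1.28 and -2.03. These comparisons were added after the values were seen, and the part of cell composition in the changes was not tested.

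Plasmacytoid dendritic cells, which carry much Irf7 in the resting state, had 2 of 8 markers higher and 4 lower, with sums of 229 to 248 at 900 cGy and 210 to 225 at 0 cGy. Siglech, their defining surface marker, was not called, at -0.15 (limma adjusted p = 0.262). The 2 markers that were higher were Bst2, itself on the interferon-stimulated list, and Klk1. Klk1 had mean levels of 4.49 at 900 cGy and -1.23 at 0 cGy, the largest difference on this list. The exocrine pancreas markers described below had a mean difference of 6.91, and the source of the Klk1 signal was not tested. Without these, a setting added after the values were seen, the other 6 markers had sums of 117 to 132 at 900 cGy and 191 to 207 at 0 cGy. A lower sum follows from leaving out the markers that were higher, so no conclusion is drawn from it. Among the 6, Ly6d had mean levels of 4.62 at 900 cGy and 6.41 at 0 cGy. In the same order, Ccr9 had -1.32 and 0.53, and Cox6a2 -2.46 and 0.23. Tcf4 had 2.91 and 3.04, and Pacsin1 2.29 and 2.60. Of 8 neutrophil markers 1 was called, and of 7 natural killer cell markers 3 were higher and 2 lower.

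RNA of exocrine pancreas also differed between the groups: 9 of 10 markers were higher at 900 cGy, with sums of 1245 to 1567 at 900 cGy and 2.09 to 167 at 0 cGy. Within the unirradiated group the mean level of these markers was -4.34, 3.30 and 1.02 in replicates 1, 2 and 3. Of the 10 markers, 5 were called without irradiated replicate 2, 6 without irradiated replicate 1 or 3, and 2 with the slide row as a block. The part of pancreatic RNA in the results was not tested. Known p53 targets, a check of the irradiation labels, were higher for 12 of 12 genes, with Cdkn1a at 4.61.

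**Figure D5:**
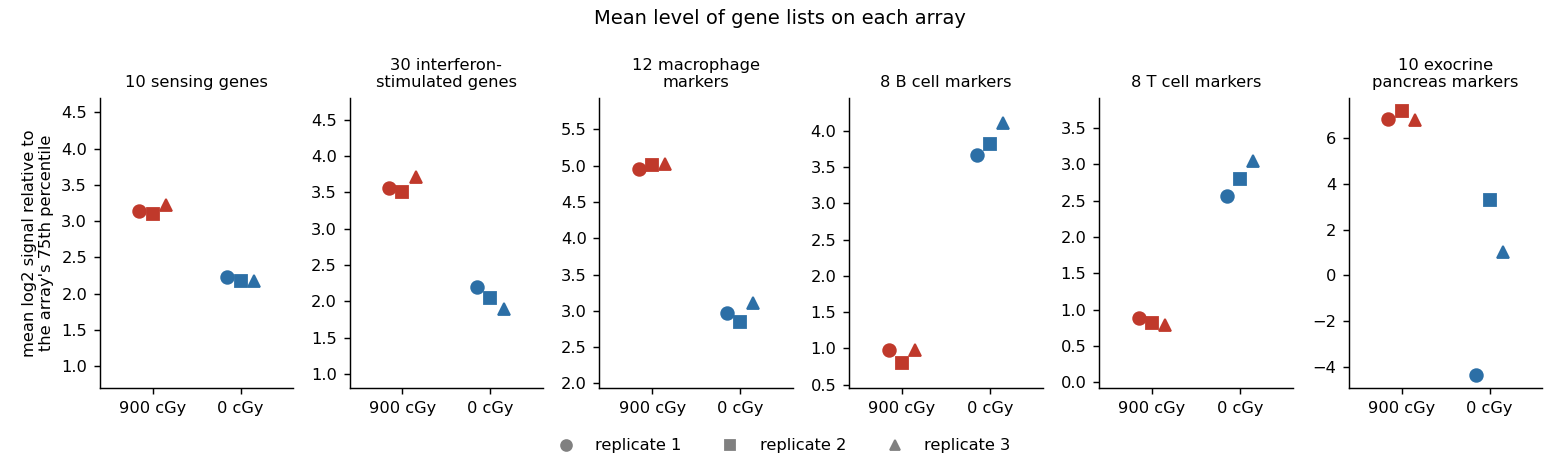
Mean log2 signal of 6 gene lists above each array's 75th percentile, with 900 cGy in red on the left and 0 cGy in blue on the right; symbols mark replicates 1 to 3 and panels have their own vertical ranges. The sensing genes lie between 3.10 and 3.23 at 900 cGy and between 2.17 and 2.23 at 0 cGy, while macrophage markers are higher, B and T cell markers lower and pancreatic markers higher and more variable.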

How the data were processed

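The deposited intensity values of the one-colour (Cy3) 8x60K arrays came from Agilent Feature Extraction 10.5.1.1, per the file headers, with background subtracted and spatial trends removed on each array. A table of log2 values, also deposited by the authors, matched these intensities after 75th-percentile scaling and median-centring of probes (column medians -0.025, 0.018 and -0.0083 at 900 cGy; 0.047, -0.0059 and -0.046 at 0 cGy), and was used as an alternative. All 6 arrays were on 1 slide and in 1 scan; slide row 1 held the unirradiated arrays and irradiated replicate 1.

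From each log2 processed intensity the log2 of the array's 75th percentile was subtracted, itself between 1114 and 1403 over 59305 non-control spots; no spot was saturated. Outlier spots were dropped and repeated spots of a probe were averaged. Probes well above background on all 3 arrays of a group were tested with limma 3.58.1 in R 4.3.3 (lmFit and eBayes, two-sided, tested on simulated data), with Benjamini-Hochberg adjustment over 39683 probes and a threshold of 0.05. Each gene was counted by its brightest probe. Ratios were tested with scipy 1.17.1. Where no array of a group was well above background, the fold is a bound against the lowest signal that was. Precision is limited by the number of arrays.

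The 10 genes and all lists were chosen with earlier results of these data known. All 10 genes were named; each list gave up to 3 genes with the largest change past the threshold, and up to 3 called against its majority; 2 genes taken by this rule are not reported here. Siglech, Bst2, Klk1, Ly6d, Ccr9, Cox6a2, Tcf4, Pacsin1, Cd4, Mb21d1, Ifnb1, Ifna4 and Ifne were named after their values were seen.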

Additional observations from a re-analysis of the deposited data

How the results depend on the processing

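Of 190 recomputed changes of single genes, 168 kept direction and side of the threshold. The change of Mavs turned to -0.022 with spike-in scaling. The number of the 10 genes called higher was 7 or 6 under every alternative. The number called lower, 1, became 3 with normexp background correction, spike-in scaling or a mean-variance trend, 2 with probes above background on all arrays, 1 probe per gene name or the authors' deposited values, and 0 with slide row as a block or slide row 1 alone; leaving out 1 array gave 0 to 1 (0 without irradiated replicate 2). These changes concern Mavs, Tmem173, Tbk1 and Irf3. Correlations of same-numbered pools' deviations from their group means were 0.07, 0.11 and -0.01, so the numbers were not taken to pair pools. With the replicate block, 6 of the 10 genes were higher (Mavs was not called, adjusted p = 0.0824) and 1 lower, and 9935 probes were higher and 11297 lower. Probes called higher, 10488, were 6552 with spike-in scaling and 6043 in slide row 1 alone, and probes called lower, 12322, were 5969 there, where 1 irradiated array is assumed to vary like the unirradiated ones; leaving out 1 array gave 8932 to 10808 higher and 10107 to 13006 lower. The cause of these shifts was not tested, and row 1 alone also held fewer arrays. The difference between the groups in the log2 ratio of Tbk1 to Irf3, 0.015, became -0.00073 with normexp; leaving out 1 array gave values between -0.033 and 0.051. Of 342 recomputed list counts, 67 moved by over 1.5 times; spike-in scaling gave 24 interferon-stimulated genes higher and 2 lower. No dim probe limits the 10 genes, but the dimmer interferon ligands were near background.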

Other observations

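The 3 unirradiated pools differed among themselves, in different directions for different genes. Irf7 had levels of 1.32, 0.96 and 0.63 in unirradiated replicates 1, 2 and 3, Dhx58 had 1.44, 1.34 and 1.11, and Ifih1 had 1.01, 0.82 and 0.69. The mean of the 30 interferon-stimulated genes, 2.19, 2.05 and 1.90, was also highest in replicate 1 and lowest in replicate 3, as were those of the neutrophil markers (4.07, 3.74 and 2.93) and the markers of dividing cells (3.19, 2.92 and 1.61). Ddx58 had 2.43, 2.52 and 2.65, Trex1 had 3.98, 4.02 and 4.15, and Zbp1 had 1.41, 1.28 and 1.42. Tmem173 had 3.81, 3.94 and 4.17, and the B cell markers had means of 3.67, 3.82 and 4.10, highest in replicate 3. The T cell markers, with means of 2.57, 2.80 and 3.04, had the same order. Relative to the interferon-stimulated mean of the same array, the spread of Ifih1 was 0.01 at 900 cGy and 0.02 at 0 cGy, and that of Dhx58 was 0.04 in both groups (SD, n = 3 each), against 0.09 and 0.16 for Ifih1 and 0.07 and 0.17 for Dhx58 without that step. At 0 cGy the same step gave a spread of 0.25 for Ddx58, 0.23 for Trex1 and 0.17 for Zbp1, against 0.11, 0.09 and 0.08 without it, and 0.20 for Irf7, against 0.34. With 3 pools a group, these orders are values only.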
